A study of Mus musculus with 2 samples.

Results

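Klf2, Klf3, Klf4, Klf5, Klf13 and Klf16 are 6 genes of the Kruppel-like factor family that are transcribed in mouse embryonic stem cells. They were taken as a set by name, with earlier results of these data known. They are 6 of the 10912 genes with a listed m6A position in an exon. The data were ONT DRS (direct sequencing of native poly(A) RNA through nanopores) of mouse 129 embryonic stem cells, either wild-type (WT) or Mettl3 knockout (KO), with 1 library per condition and no replicates. In the KO cells both alleles of Mettl3, the catalytic subunit of the m6A methyltransferase, had exons 5 to 7 replaced by puromycin and hygromycin resistance genes, and the cells came from colonies selected with both drugs. The WT cells did not carry this change, and the labels name no other treatment. By mass spectrometry the paper found m6A virtually absent from the KO mRNA. The files are 17 position lists from 10 tools. There was 1 list per library for the single-mode tools (Epinano, ELIGOS, m6Anet, Nanom6A, MINES and Tombo) and for xPore. In the paper xPore is a compare-mode tool that models both samples together, so its WT and KO lists may not be independent. Nanocompore, DiffErr and DRUMMER set WT against KO and gave 1 comparison list apiece. The paper proposes that false positives are prevalent among the sites that single-mode tools detect in KO. The lists give positions only, so the depth behind a position is unknown and no test across samples was possible. All intervals are 95% Wilson intervals and cover counting error only. Positions in 1 gene share reads, and are not replicates.

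Kruppel-like factors are transcription factors with zinc fingers at the C terminus that bind GC-rich and CACCC sequences. Klf2, Klf4 and Klf5 can stand in for each other in keeping mouse embryonic stem cells in the naive state, and Klf4 is also used to reprogram somatic cells. Klf3 is mainly a repressor that recruits CtBP, and Klf13 and Klf16 belong to a branch of the family that can recruit the Sin3A corepressor. m6A is deposited by the Mettl3–Mettl14 complex at RRACH sequences (R is A or G, H is A, C or T in the DNA alphabet), often near the stop codon and in long exons, and it commonly shortens the life of an mRNA.

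The 6 genes held 126 listed positions, counted once per genome position and strand, of 160430 in all lists. WT or comparison lists named 100 of them and KO lists 74, with 48 in both, 52 in WT or comparison only and 26 in KO only. All 126 were centred on RRACH, and the paper kept only sites in this sequence. No position lay in an exon of another gene on the same strand, and 3 positions, all in Klf3, lay off the main transcript. The check of the KO library at Mettl3 found 2 WT positions and 0 KO positions in the replaced exons 5 to 7, 9 and 0 in exons 1 to 7 as a whole, and 4 WT and 5 KO positions in exons 8 to 11. All 7 stem cell markers (Nanog, Pou5f1, Sox2, Esrrb, Zfp42, Tdgf1 and Dppa5a) had listed positions in both libraries. Of 6 fibroblast feeder markers, Fn1, Vim and Thy1 had 76, 9 and 3 positions in WT and 56, 2 and 1 in KO. The defining collagens Col1a1, Col1a2 and Col3a1 had 0 in WT, and Col1a1 had 3 in KO. The part of feeder RNA in the results was not tested.

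The sequences below are the positions that 5 or more of the 10 tools listed in WT or in the comparison, with the position of most tools in Klf5, Klf13 and Klf16 added (the first from the 5′ end where several tied) so that all 6 genes are shown. Each is 21 bases of the main transcript, read 5′ to 3′ from the GRCm38 genome, and the capitals mark the RRACH 5-mer with the listed A in its centre. Distances are counted from the start of the stop codon, with minus for upstream. From the group of sites that followed the Klf2 stop codon, whose windows overlap, the position with the most tools is shown.
Klf2 chr8:72319487 (+), −929 nt: aacgtgttGGACTtcatcctc
Klf2 chr8:72319652 (+), −764 nt: cccgacctGGACCcgcctcag
Klf2 chr8:72319776 (+), −640 nt: tggcccacGGACCgcgcgggc
Klf2 chr8:72320841 (+), −76 nt: caggtcacAGACCctttcagt
Klf2 chr8:72321009 (+), 92 nt: tatttattGGACCttaggaca
Klf4 chr4:55530493 (-), −833 nt: ccggagttGGACCcagtatac
Klf4 chr4:55530155 (-), −495 nt: ccccaccaGGACTacccctac
Klf4 chr4:55530112 (-), −452 nt: aacagcagGGACTgtcaccct
Klf4 chr4:55527804 (-), 323 nt: acatgcccGGACTtacaaaat
Klf5 chr14:99301844 (+), −647 nt: ccggatctAGACAtgcccagt
Klf3 chr5:64822956 (+), −414 nt: accacagaGGACTgactatta
Klf13 chr7:63887324 (-), 4186 nt: gagttagtGGACTtgctctgg
Klf16 chr10:80568779 (-), 144 nt: ctgagaatGGACTtgggtcac
Of the 13 sequences, 7 hold GGACT, 4 GGACC, 1 AGACC and 1 AGACA. This tally follows the choice of sequences and does not rank the 5-mers. It leaves out the AGACT at 77 nt and the GGACA at 100 nt of Klf2, each listed by 7 tools.

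Klf2 was the most densely listed of the 6 genes. It lies on chr8:72319033-72321656 on the plus strand (ENSMUSG00000055148), and its transcript ENSMUST00000067912 has 1847 nt in 3 exons. The exons held 20 RRACH positions, and all 20 were listed in WT or the comparison (100%, interval 83.9% to 100%), against 17.1% of the exonic RRACH positions of all coding genes with a listed position. KO lists named 19 of the 20, against 14.2% over the same genes. Whether a position is listed depends on the reads that cover it, and in bulk RNA fewer cells that carry a transcript cannot be told apart from less RNA per cell.

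The KO positions of Klf2 came mainly from 1 tool. Nanom6A listed 17 positions in WT and 18 in KO, and all 17 WT positions were also in KO. Of the 19 KO positions, 12 were in the Nanom6A list only. m6Anet listed 8 positions in WT and 0 in KO, and ELIGOS listed 4 and 0. Tombo listed 10 in WT and 6 in KO, Epinano 5 and 1, xPore 4 and 2, and MINES 2 and 1. For the same gene, then, the number of positions in KO ran from 0 to 18 between tools that each listed it in WT. With all KO lists 1 of the 20 positions was in no KO list, an AAACC that lies 726 nt after the stop codon and was listed by Epinano. Over all WT or comparison positions the share in no KO list was 41.0%. Without the KO lists of Tombo and Nanom6A, 16 of the 20 were in no KO list, and the matching share over all positions is not given here.

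Klf2 held 10 of the 15 positions of the 6 genes in a comparison list. DiffErr listed 9 of them, Nanocompore 7 and DRUMMER 3. Of the 10148 coding genes with a listed position, 7 had more positions in comparison lists and 4 had more DiffErr positions. Comparison lists named at least 1 position in 15.3% of these genes. In the coding sequence the 4 positions were the GGACT in codon 45 (72319487), the GGACC in codon 100 (72319652), the GGACC in codon 141 (72319776) and the AGACC in codon 329 (72320841). The one in codon 100 was listed by 7 tools and by all 3 comparison lists, and also by Tombo, Nanom6A and xPore in KO. The other 3 were listed by 5 tools each, and in KO by Nanom6A only.

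The other 6 positions of Klf2 in comparison lists lay in the 3′ UTR, and 5 of them fell in 38 nt that start 73 nt after the stop codon's first base. The AAACA at 73 nt (72320990) was listed by 2 tools. The AGACT at 77 nt (72320994) was listed by 7 tools, the GGACC at 92 nt (72321009) by 8, the GGACA at 100 nt (72321017) by 7 and the GGACA at 110 nt (72321027) by 4. DiffErr listed all 5, Nanocompore the 3 with most tools, and DRUMMER the GGACC. Nanom6A listed all 5 in KO as well, Tombo the pair of GGACA and xPore the GGACC, which it did not list in WT. The sixth was an AGACT at 331 nt (72321248), in Nanocompore and in the WT and KO lists of Nanom6A. A comparison list and a KO list thus named the same base at each of the 10 positions. The highest number of KO lists in Klf2 was 3, at the GGACC in codon 100 and at a GAACC in codon 30 (72319443) that 4 tools listed in WT.

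Klf4, on chr4:55527143-55532466 on the minus strand (ENSMUSG00000003032, transcript ENSMUST00000107619 of 3029 nt in 5 exons), had the most WT positions of the 6 genes. Of its 48 exonic RRACH positions, 32 were listed in WT or the comparison (66.7%, interval 52.5% to 78.3%), and 15 in KO. All 15 KO positions were among the 32, so 17 positions were listed without a KO list. Tombo listed 12 positions in WT and 6 in KO, MINES 5 and 1, Nanom6A 19 and 3, m6Anet 21 and 8, ELIGOS 8 and 1, Epinano 15 and 0 and xPore 4 and 1. Each of the 7 tools thus listed fewer positions in KO than in WT. Nanom6A listed again in KO 3 of its 19 WT positions in Klf4 and 17 of its 17 in Klf2, and m6Anet listed again 8 of 21 in Klf4 and 0 of 8 in Klf2. Whether read numbers differed between the libraries at these genes was not tested.

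The GGACC in codon 206 of Klf4 (55530493) was listed by all 10 tools and in 0 KO lists. It was the only position of the 6 genes with all 10 tools. A GGACT in the 3′ UTR 323 nt after the stop codon (55527804) and a GGACT in codon 333 (55530112) were listed by 8 tools each, Nanocompore among them and not DiffErr or DRUMMER. The one in the 3′ UTR was in no KO list, while the one in codon 333 was in the KO lists of Tombo, MINES and m6Anet. The GGACT in codon 319 (55530155) was listed by 5 single-mode tools and by Tombo in KO, and the GGACC in codon 102 (55530805) by 4 tools and in no KO list. An AGACA 184 nt after the stop codon (55527943) was in the lists of Tombo, m6Anet and Nanocompore and in no KO list. Of the KO positions, that in codon 333 and a GAACT in codon 446 (55528239) were in 3 KO lists, the highest number in Klf4.

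A stretch of 21 nt in the 3′ UTR of Klf4, from 204 to 224 nt after the stop codon, held 4 listed AAACA 5-mers. Nanom6A listed all 4 in WT and no other tool listed any. The second from the 5′ end, at 208 nt, is shown because it was also in the Nanom6A KO list.
Klf4 chr4:55527919 (-), 208 nt: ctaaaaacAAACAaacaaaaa
Outside the 5-mer, the window holds only A and C apart from a T. Over the 6 genes AAACA made up 54 of 419 exonic RRACH positions, and 13 were listed in WT or the comparison (24.1%, against 11% of AAACA positions over all coding genes with a listed position).

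Klf5, on chr14:99298691-99315036 on the plus strand (ENSMUSG00000005148, transcript ENSMUST00000005279 of 3352 nt in 4 exons), had WT positions and no KO position. Of 70 exonic RRACH positions, 14 were listed in WT (20%, interval 12.3% to 30.8%), and 0 in any KO list. Among the 3971 coding genes with at least as many WT or comparison positions, 70 had no KO position (1.76%). Tombo listed 9 of the 14, Epinano 8 and ELIGOS 1, and no other list held a position in the gene. The 14 were spread from the 5′ UTR to 1524 nt after the stop codon, with 1 in the 5′ UTR, 6 in the coding sequence and 7 in the 3′ UTR. The AGACA in codon 231 (99301844), the GGACT at 430 nt (99313757) and the GGACA at 1524 nt (99314851) were listed by Tombo and Epinano, and the GGACA at 1265 nt (99314592) by Tombo and ELIGOS. The other 10 were listed by 1 tool each, such as the AGACC in the 5′ UTR (99298988), listed by Epinano. No comparison list named Klf5, and the lists do not tell a position without m6A in KO from a transcript with too few KO reads. That the gene had too few KO reads was not tested, since the lists hold no read numbers.

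Klf3, on chr5:64803388-64832901 on the plus strand (ENSMUSG00000029178, transcript ENSMUST00000165536 of 5221 nt in 6 exons), had more positions in KO than in WT. KO lists named 20 positions and WT or comparison lists 14, with 8 in both, so 12 were in KO only. The 14 were 9.15% of 153 exonic RRACH positions (interval 5.53% to 14.8%), a count that takes in exons of every annotated transcript. The main transcript held 67 RRACH positions, of which 12 were listed in WT or the comparison. The coding sequence held 5 WT and 12 KO positions, and the 3′ UTR 6 and 4. Tombo gave 9 positions in WT and 13 in KO and Nanom6A 3 and 6, while Epinano gave 8 and 3.

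The best supported position of Klf3 was the GGACT in codon 207 (64822956). In WT or the comparison it was listed by 8 tools, Tombo, Nanom6A, m6Anet, ELIGOS, Epinano, xPore, Nanocompore and DiffErr, and in KO by Tombo, Nanom6A, m6Anet and Epinano. It was the only one of the 74 KO positions in 4 KO lists, and it was also the only Klf3 position in a comparison list. ELIGOS and xPore listed it in WT and not in KO. Next came the GAACC in codon 220 (64822996), with 3 tools and Tombo in KO. The GAACA in the 5′ UTR (64816748) and the AGACT at 2891 nt (64832047) and at 3050 nt (64832206) had 2 tools each. Between 325 and 2891 nt after the stop codon, 26 RRACH positions of the main transcript were in no list of either library.

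Klf13, on chr7:63886351-63938915 on the minus strand (ENSMUSG00000052040, transcript ENSMUST00000063694 of 6396 nt in 2 exons), had WT positions at the 3′ end only. Of 105 exonic RRACH positions, 10 were listed in WT (9.52%, interval 5.26% to 16.6%) and 16 in KO, with 4 in both. All 10 WT positions lay between 3239 and 4795 nt after the stop codon, in a 3′ UTR of 5157 nt. The 16 KO positions were 2 in the 5′ UTR, 7 in the coding sequence and 7 in the 3′ UTR. Between 160 and 3239 nt after the stop codon, 48 RRACH positions were in no list of either library. Tombo listed 8 positions in WT and 11 in KO, MINES 4 and 2 and Epinano 5 and 4. Nanom6A listed 0 and 1 and m6Anet 0 and 2. The GGACT at 4186 nt (63887324) and the GGACA at 4655 nt (63886855) were listed by Tombo, MINES and Epinano in WT, the first in no KO list and the second by Tombo in KO. The GGACA at 3316 nt (63888194) and at 4753 nt (63886757) and the AGACA at 3758 nt (63887752) had 2 tools each. At most 2 KO lists named the same position, at a GAACC in codon 32 (63938451), the GGACA at 4309 nt (63887201) and at 4753 nt, and the GAACT at 4795 nt (63886715).

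Klf16, on chr10:80567124-80577321 on the minus strand (ENSMUSG00000035397, transcript ENSMUST00000038558 of 2674 nt in 2 exons), had 10 WT positions among 23 exonic RRACH positions (43.5%, interval 25.6% to 63.2%) and 4 in KO, with 2 in both. All 12 listed positions lay in the 3′ UTR, which held 19 of the 22 RRACH positions of the main transcript, and the 3 RRACH positions of the coding sequence were in no list. Tombo listed 8 in WT and 4 in KO, MINES 3 and 1, and Epinano 4 and 0, and no other tool listed the gene. The GGACT at 144 nt (80568779) was listed by these 3 tools in WT and in no KO list. The GGACT at 133 nt (80568790), the GGACA at 67 nt (80568856) and the AGACT at 1148 nt (80567775) had 2 tools each and no KO list, and the AGACA at 844 nt (80568079) was listed by Tombo in both libraries. The GGACA at 1693 nt (80567230) was in the KO lists of Tombo and MINES.

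**Figure D1:**
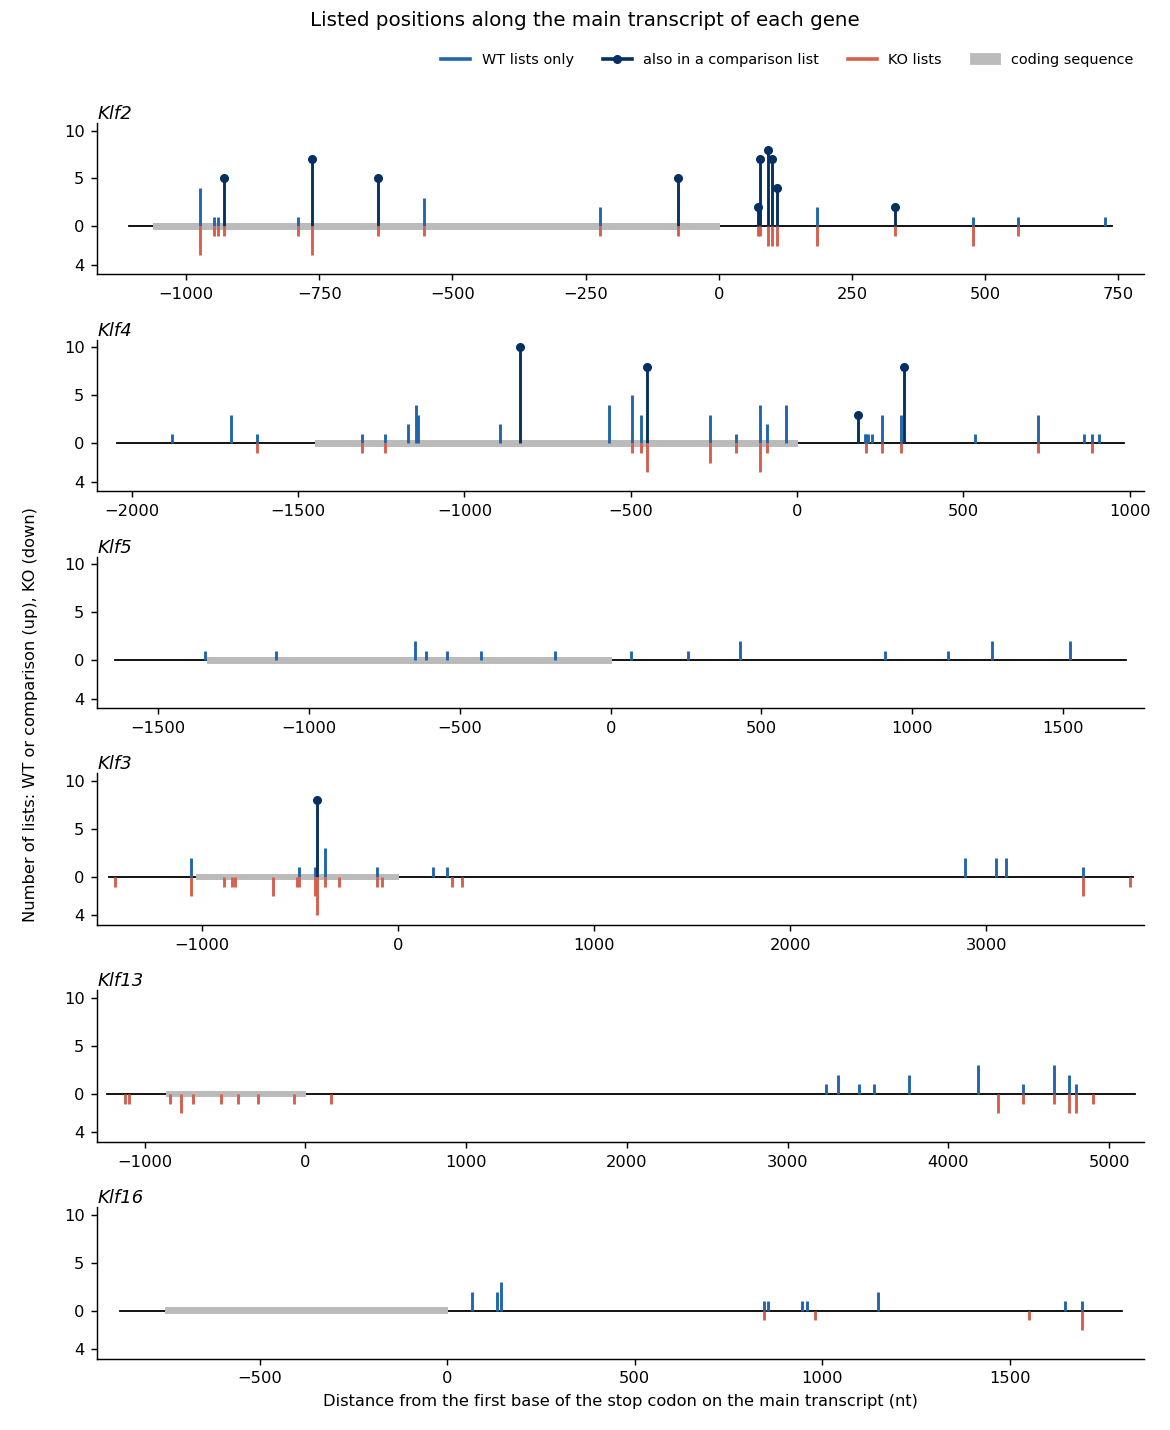
Listed positions along the main transcript of each of the 6 genes, with the distance from the first base of the stop codon in nt on the horizontal axis (a scale of its own for each gene) and the number of lists on the vertical axis. Blue lines go up for WT or comparison lists, with a dot where a comparison list named the position, and orange lines go down for KO lists. The Klf2 cluster after the stop codon, the absence of orange lines in Klf5 and the WT positions of Klf13 that lie only from 3239 nt onwards can be seen.

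**Figure D2:**
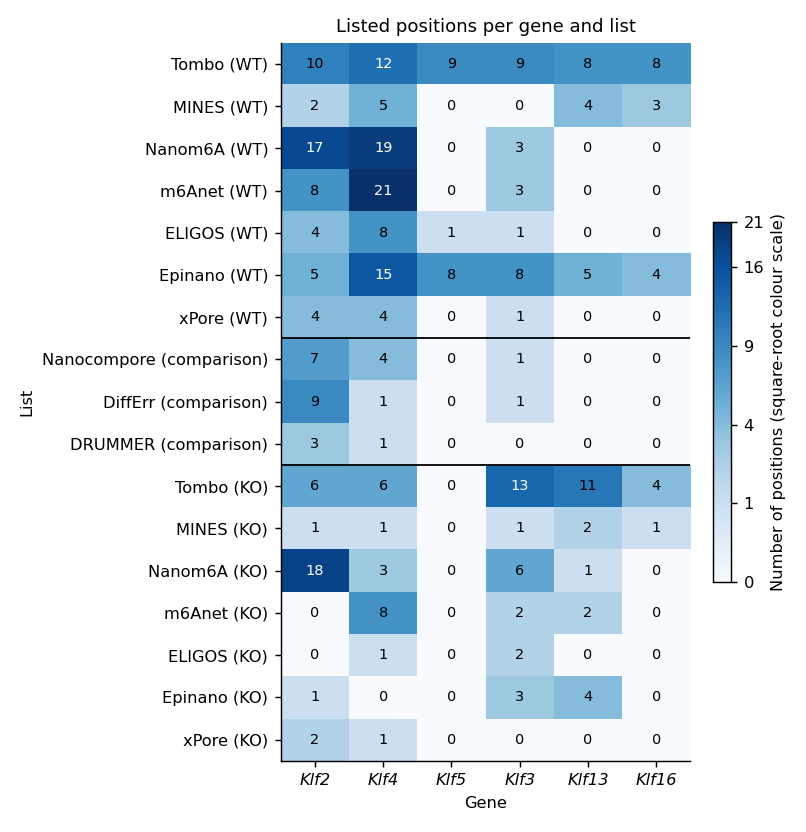
Number of listed positions in each gene (columns) and list (rows), with darker blue for more positions. The highest counts in WT are m6Anet in Klf4 with 21, Nanom6A in Klf4 with 19 and Nanom6A in Klf2 with 17, and the Klf5 column is 0 in all 7 KO lists.

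The 6 genes fell in this order by the share of exonic RRACH positions listed in WT or the comparison: Klf2, Klf4, Klf16, Klf5, Klf13 and Klf3. The intervals of Klf2 and Klf4 did not overlap each other, while those of Klf4 and Klf16, of Klf16 and Klf5, of Klf5 and Klf13 and of Klf13 and Klf3 did, and the differences themselves were not tested. On main transcripts alone the shares were 100%, 66.7%, 45.5%, 30.4%, 10.3% and 17.9% in the same order of genes, so that Klf3 and Klf13 changed places. The genes also differed in which tools listed them. Nanom6A, m6Anet and xPore listed Klf2, Klf4 and Klf3 in WT and none of Klf5, Klf13 and Klf16. Tombo and Epinano listed all 6 genes in WT, and Tombo gave between 8 and 12 positions in each. By the methods of the study, m6Anet requires more reads at a site than the other tools, and MINES reports only some RRACH 5-mers.

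Per list, the share of the 419 exonic RRACH positions of the 6 genes was set beside the share over all coding genes with a listed position. In WT it was 13.4% for Tombo (interval 10.4% to 17%) against 10%, 3.34% for MINES (2% to 5.53%) against 1.79%, and 9.31% for Nanom6A (6.88% to 12.5%) against 4.34%. It was 7.64% for m6Anet (5.46% to 10.6%) against 3.14%, 3.34% for ELIGOS (2% to 5.53%) against 0.798%, 10.7% for Epinano (8.12% to 14.1%) against 5.91%, and 2.15% for xPore (1.13% to 4.03%) against 0.722%. In all 7 WT lists the share of the 6 genes was above that of all genes and the interval did not hold the latter, but Klf2 and Klf4 carried much of this. They held 68 of the 419 RRACH positions and 36 of the 39 Nanom6A, 29 of the 32 m6Anet, 12 of the 14 ELIGOS and 8 of the 9 xPore positions. In the other 4 genes the WT shares were 9.69% for Tombo, 1.99% for MINES, 0.855% for Nanom6A, 0.855% for m6Anet, 0.570% for ELIGOS, 7.12% for Epinano and 0.285% for xPore, so that only those of MINES and Epinano were above the share of all genes. In the comparison lists it was 2.86% for Nanocompore (1.65% to 4.94%) against 0.283%, 2.63% for DiffErr (1.47% to 4.64%) against 0.235%, and 0.955% for DRUMMER (0.372% to 2.43%) against 0.170%. Klf2 and Klf4 held 11 of the 12 Nanocompore, 10 of the 11 DiffErr and all 4 DRUMMER positions, and the other 4 genes were at 0.285% for Nanocompore, 0.285% for DiffErr and 0 for DRUMMER. The 6 genes were chosen with earlier results of these data known, so the shares describe this set and not the family.

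In KO the shares were 9.55% for Tombo (7.09% to 12.7%) against 9.05%, 1.43% for MINES (0.658% to 3.09%) against 1.26%, 2.86% for m6Anet (1.65% to 4.94%) against 1.83%, 1.91% for Epinano (0.971% to 3.72%) against 2%, and 0.716% for xPore (0.244% to 2.08%) against 0.319%. For these 5 tools the interval held the share of all genes. It did not for Nanom6A, with 6.68% (4.66% to 9.49%) against 3.58%, or for ELIGOS, with 0.716% (0.244% to 2.08%, 3 positions) against 0.202%. Of the 28 Nanom6A KO positions 21 lay in Klf2 and Klf4, and in the other 4 genes the share was 1.99%, below that of all genes. Over any list, 23.9% of the RRACH positions were listed in WT or the comparison (20% to 28.2%), against 17.1% over all these genes, and 17.7% in KO (14.3% to 21.6%), against 14.2%, and neither interval held the share of all genes. In the 4 genes other than Klf2 and Klf4 the shares were 13.7% and 11.4%, both below those of all genes.

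**Figure D3:**
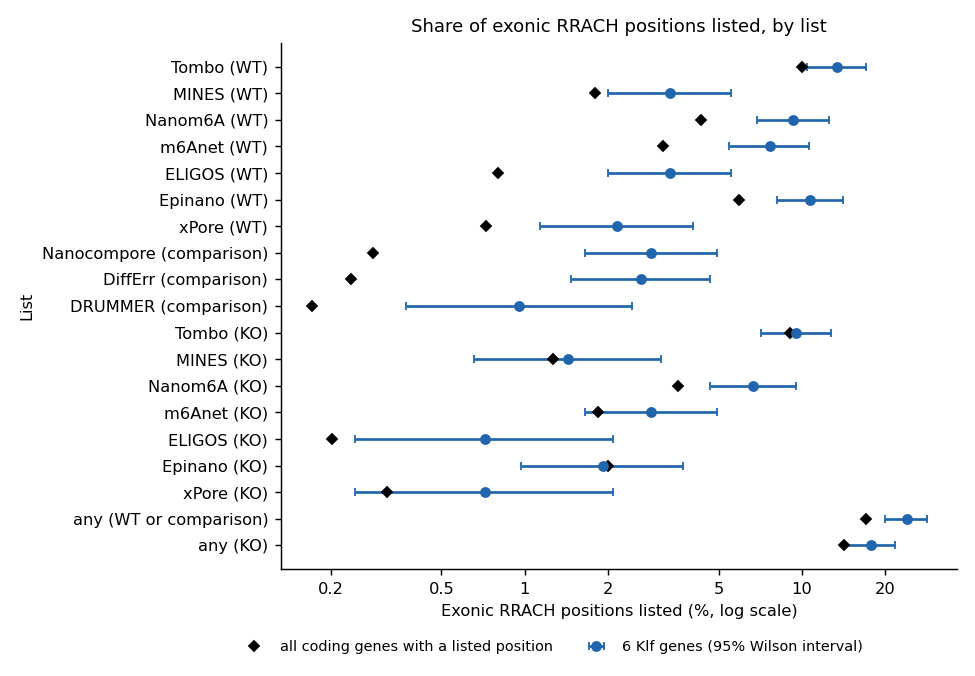
Share of exonic RRACH positions listed, in percent on a log scale, for each list. Blue points with 95% Wilson intervals are the 6 Klf genes and black diamonds are all coding genes with a listed position. The blue points lie to the right of the diamonds in all WT and comparison lists, and their intervals cover the diamonds in 5 of the 7 KO lists.

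Of the 100 WT or comparison positions, 52.0% were in no KO list (interval 42.3% to 61.5%), against 41.0% of all 129045 such positions. By gene this was 1 of 20 in Klf2, 17 of 32 in Klf4, 14 of 14 in Klf5, 6 of 14 in Klf3, 6 of 10 in Klf13 and 8 of 10 in Klf16. Without the KO lists of Tombo and Nanom6A the counts were 16, 22, 14, 11, 8 and 9 in the same order. The 41.0% holds for all KO lists and is no background for these counts. Within a tool, the share of WT positions listed again in KO was 39.3% for Tombo (27.6% to 52.4%) against 59.7% over all its WT positions, and 14.3% for MINES (4.01% to 39.9%) against 40.2%. It was 59.0% for Nanom6A (43.4% to 72.9%) against 65.4%, 28.1% for m6Anet (15.6% to 45.4%) against 34.4%, 7.14% for ELIGOS (1.27% to 31.5%) against 11.5%, 8.89% for Epinano (3.51% to 20.7%) against 16.5%, and 22.2% for xPore (6.32% to 54.7%) against 24.9%. Only for Tombo and MINES did the interval leave out the share of all positions. Klf5, which had no KO position, gave 14 of the 52 positions in no KO list. It also gave 9 of the 34 Tombo positions listed in WT only, and shares without Klf5 are not given here.

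Of the 74 KO positions, 54 were in 1 KO list (73.0%, beside 76.7% of all 107577 KO positions), 15 in 2, 4 in 3 and 1 in 4. KO lists alone named 26 of the 126 positions (20.6%, beside 19.6% of all 160430). Of these 26, 12 lay in Klf3, 12 in Klf13 and 2 in Klf16, and 17 were in the KO list of Tombo. Klf2 and Klf4 had none.

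At least 6 of the 10 tools listed 8 of the 100 positions (8%, interval 4.11% to 15.0%), against 1.98% of all. These were 4 positions in Klf2, 3 in Klf4 and 1 in Klf3. By 1 tool 48.0% were listed (38.5% to 57.7%), against 65.3% of all. The 8 positions with at least 6 tools were 4 in the coding sequence and 4 in the 3′ UTR. Their 5-mers were 3 GGACC, 3 GGACT, 1 GGACA and 1 AGACT, a tally given without a background. The paper found that most tools detected sites in these sequences better than in others, and MINES reports only these. In the paper MINES takes values from Tombo as input, so the tools are not all independent. What the tally owes to this was not tested. Of the 8 positions, 2, both in Klf4, were in no KO list, beside 694 of all 2554 such positions (27.2%). The 8 positions lay between 73 and 498 nt from the nearest exon junction (median 259.5 nt). The median was 381.5 nt for all 98 placed WT or comparison positions, 430.5 nt for those with 1 tool and 660.5 nt for the 300 RRACH positions of the 6 main transcripts, of which Klf13 and Klf3, with long 3′ UTRs, held 97 and 67.

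A comparison list named 15 of the 100 positions (15.0%, interval 9.31% to 23.3%), against 2.45% of all, and these were 10 in Klf2, 4 in Klf4 and 1 in Klf3. Of the 15, 6 were in 1 comparison list, 6 in 2 and 3 in all 3, and all 4 DRUMMER positions were also DiffErr positions. Nanom6A listed 14 of the 15 in WT and 11 in KO, m6Anet 12 and 2, Tombo 11 and 5, xPore 8 and 2, ELIGOS 6 and 0, Epinano 6 and 1, and MINES 5 and 1. For 6 of the 15 the only KO list was that of Nanom6A, and 3, all in Klf4, were in no KO list, beside 744 of all 3166 positions in a comparison list (23.5%). The counts by tool are given without such a background.

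**Figure D4:**
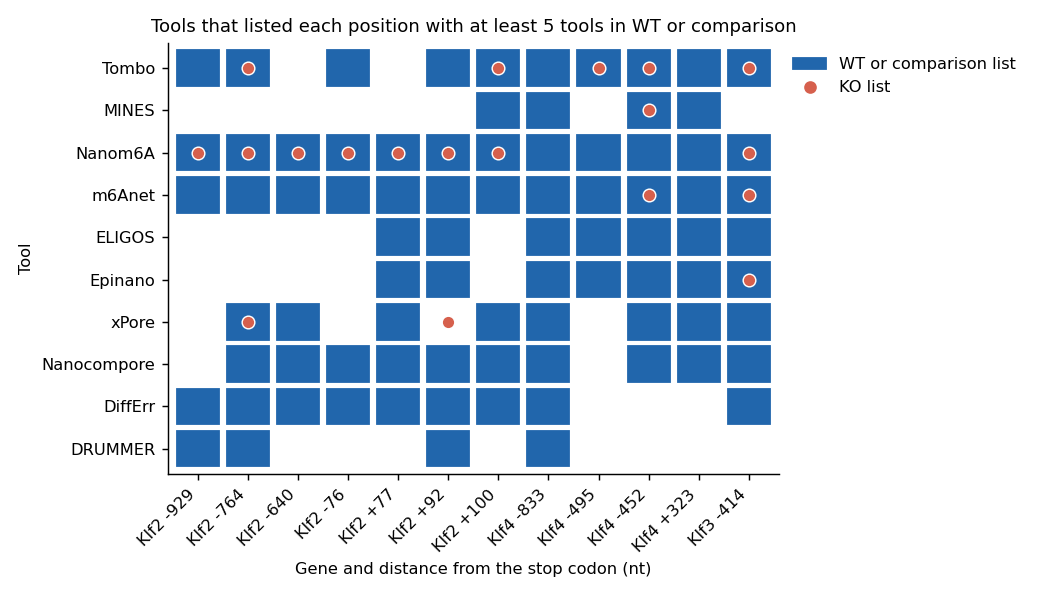
The 12 positions that at least 5 tools listed in WT or the comparison (columns, with the gene and the distance from the stop codon in nt) against the 10 tools (rows). Blue squares are WT or comparison lists and orange dots are KO lists. Nanom6A has an orange dot at all 7 positions of Klf2 and at none of the 4 of Klf4.

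By place on the main transcript, 5.10% of the 98 placed WT or comparison positions lay in the 5′ UTR (interval 2.20% to 11.4%) against 3.16% of all placed positions, 37.8% in the coding sequence (28.8% to 47.6%) against 56.7%, and 57.1% in the 3′ UTR (47.3% to 66.5%) against 40.1%. Of the RRACH positions of the 6 main transcripts, 16 lay in the 5′ UTR, 85 in the coding sequence and 199 in the 3′ UTR. A window of 200 nt on either side of the stop codon held 19.4% of the WT or comparison positions (12.8% to 28.3%), against 22.5% of all, and 19.4% of the KO positions (12% to 30.0%), against 21.1% of all. In the same window lay 12.7% of the RRACH positions of these transcripts, a share that ran from 7.22% in Klf13 to 35.0% in Klf2. By gene, WT or comparison lists named 7 of the 7 RRACH positions in the window in Klf2, 5 of 7 in Klf4, 3 of 4 in Klf16, 2 of 5 in Klf5, 2 of 8 in Klf3 and 0 of 7 in Klf13. In Klf13, KO lists named positions in the window at −69 nt and at 160 nt.

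GGACT was the 5-mer most often listed in the 6 genes. In WT or the comparison 45.2% of its 31 exonic positions were listed, against 28.0% over all coding genes with a listed position, then 37.8% of 37 GGACA against 27.8% and 34.6% of 26 AGACT against 18.0%. At the other end, 1 of 38 AAACC positions was listed (2.63%, against 10.4%), the one at the 3′ end of Klf2. GGACT had 14 positions in WT or the comparison and 5 in KO (15126 and 10273 over the same coding genes), and GGACC had 10 and 10 (10131 and 6824).

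Each coding sequence holds a segment of 243 nt, or 81 residues, that encodes 3 zinc fingers and could be aligned across the 6 genes without a gap. Between Klf2 and Klf4, 91.4% of the residues and 78.2% of the bases were equal, between Klf5 and Klf3 86.4% and 73.7%, and between Klf13 and Klf16 79.0% and 75.3%. The segment held 17 RRACH positions, of which 8 were listed in WT or the comparison and 8 in KO, beside 17.1% and 14.2% of the exonic RRACH positions of all coding genes with a listed position. Of the 8 in WT or the comparison, 2 lay in Klf2 and 4 in Klf4, the densely listed genes. At position 64 of the segment, 9 nt from an exon junction in all 6 genes, 5 of the 6 had an RRACH 5-mer, the most shared place. Their sequences are shown to compare the genes at this base, with the 5-mer in capitals where it is RRACH.
Klf2 chr8:72320233 (+): gcatctgcgtacacacacagg
Klf4 chr4:55529727 (-): acacctgcGAACTcacacagg
Klf5 chr14:99303468 (+): tcacctgaGGACTcatacggg
Klf3 chr5:64827261 (+): acacagaaGAACTcatacagg
Klf13 chr7:63937976 (-): gcacctgaGAACTcacacagg
Klf16 chr10:80576756 (-): acacctgcGGACTcacacagg
At this base the lists differed between the genes. In Klf4 m6Anet listed it in WT and in KO, in Klf5 Epinano listed it in WT, and in Klf13 m6Anet listed it in KO. In Klf3 and Klf16, which have GAACT and GGACT there, it was in no list.

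Other RRACH places of the segment were shared by at most 2 genes. At position 171, Klf2 had the AGACC of codon 329 with 5 tools, while the AAACC of Klf3 was in the KO list of ELIGOS only. At position 135 the GAACT of Klf4 (codon 446) was listed by 4 tools and in 3 KO lists, and the GAACT of Klf3 was in no list. At position 25 the AGACC of Klf2 had 2 tools, and the AAACC of Klf4 was in no list. At position 156 the AAACA of Klf4 had 2 tools, and that of Klf3 was in no list.

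**Figure D5:**
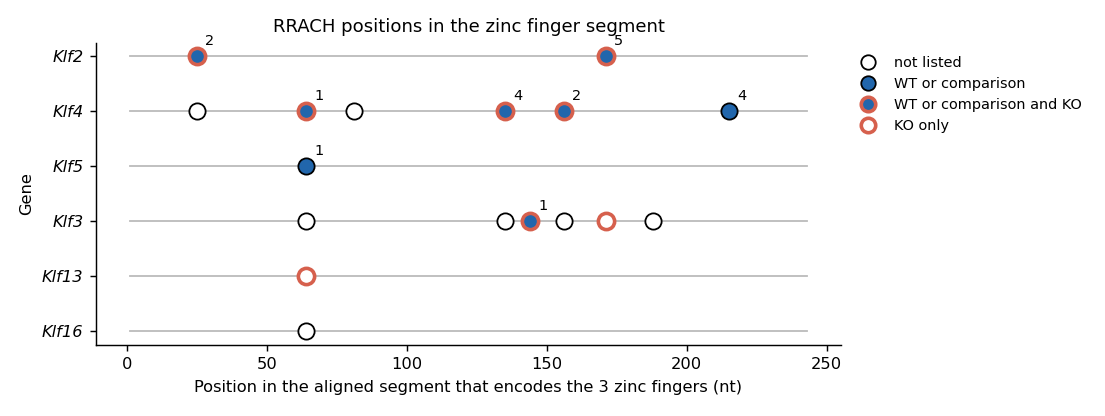
RRACH positions in the aligned segment of 243 nt that encodes the 3 zinc fingers, 1 row per gene, with the position in the segment in nt on the horizontal axis. Filled blue circles were listed in WT or the comparison (the number beside each is the number of tools), an orange edge marks a KO list, and open circles with a black edge were in no list. Position 64 has an RRACH 5-mer in every gene except Klf2, and 2 of these 5 circles are blue.

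Other genes of the family and of the naive state were taken from lists chosen by name. Of 11 other Klf genes, 6 had WT or comparison positions and 7 had KO positions, 131 and 84 in all. Klf9 had 32 WT positions, 4 of them with at least 6 tools and 6 in a comparison list. The other 10 had no position in a comparison list. Klf7 had 0 positions in WT and 14 in KO, the reverse of Klf5. Of 9 Sp genes, which bind the same kind of GC-rich sequences, 4 had WT positions, 58 in all with 49 in KO, and none had at least 6 tools. Among 15 naive pluripotency factors, all 15 had WT positions and 13 had KO positions, with 309 and 237 in all, 14 positions with at least 6 tools in 6 genes, and 16 positions in comparison lists. Klf2 had 10 positions in comparison lists, while Zfp42 had 5, Sox2 4, Nanog 2 and Pou5f1 2. Of the 309 WT or comparison positions of the 15 factors, 102 were in no KO list (33.0%, below the 41.0% of all positions), from 0 of 25 in Pou5f1 and 0 of 18 in Zfp42 over 6 of 26 in Sox2 and 15 of 50 in Esrrb to 10 of 10 in Gbx2.

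The genes whose pattern over the 17 lists was most like that of each Klf gene were found by Pearson correlation of positions per exonic RRACH position, among genes with at least 20 listed positions. The 17 lists come from 2 libraries and share their reads, so the coefficients are a description. For Klf2 they were Mrfap1 (r = 0.940), Eef2 (0.938) and Epop (0.938), and for Klf4 Klhl13 (0.936), Ist1 (0.927) and Tmem64 (0.899). For Klf5 they were Elmod3 (0.995), Dennd4c (0.985) and Rreb1 (0.984), and for Klf3 Iws1 (0.959), Chpt1 (0.958) and Hnrnpul2 (0.953). For Klf13 they were Arhgap35 (0.991), Pacsin2 (0.985) and Rngtt (0.982), and for Klf16 Arhgap29 (0.997), Kif13b (0.996) and Zkscan6 (0.994). No gene appeared under more than 1 of the 6.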

How the data were processed

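The authors sequenced poly(A) RNA of both genotypes by ONT DRS, with 1 library per condition. They basecalled with Guppy, aligned with Minimap2 to the GENCODE transcriptome, ran 10 tools and deposited genome positions on mm10 (GRCm38). These are called positions without a score, coverage or cut-off beside them. The paper required a lowest number of reads per site, higher for m6Anet. It chose the cut-off of each tool by the best F1 score, which balances precision and recall. Whether the lists used here follow these settings is not stated. An unlisted position can therefore lack m6A, reads or a passing score. The NGS-based sets and the other DRS data that the study drew on were not used here.

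Each position and strand was counted once and assigned to a gene by the exons of the GENCODE annotation on the same strand, a later release on the same build than the authors used. All 291 lines with a transcript in these genes named a transcript position that fell on the genome position beside it. The main transcript was the coding transcript with a stop codon that was named on most lines of the lists. The 5-mers and the 21-nt sequences were read from the GRCm38 genome. The zinc finger segment was found by a pattern search in the translated coding sequence of the annotation. The genes and the lists of other genes were chosen with earlier results of these data known. Positions named in the text are, per gene, the 5 with most tools, those in a comparison list and those with most KO lists. The AAACA positions of Klf4, the AAACC of Klf2, the Klf3 and Klf13 positions at the edges of unlisted stretches and the zinc finger positions outside this rule were chosen after their values were seen.

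Shares have 95% Wilson intervals (scipy 1.17.1), checked on simulated data, and no test across samples was run with 1 library per condition. The background of each share is the same share over all positions of the same kind. Examples are all 129045 WT or comparison positions, the 124265 of them that could be placed, or all WT positions of a tool. For RRACH shares it is 738788 exonic RRACH positions of 10148 coding genes with a listed position. Alternatives were counting each line, joining positions within 5 bp, RRACH only, leaving out Tombo or MINES, other KO lists, other thresholds and windows of 100 and 400 nt. Python 3.11.15, pysam 0.24.0 and matplotlib 3.10.9 were used.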

Additional observations from a re-analysis of the deposited data

How the results depend on the processing

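The lists hold no read numbers, so what an absent position means is limited by an unknown depth in all 6 genes. Counting every line of every list gave 248 WT or comparison positions in place of 100, of which several tools naming 1 position account for most, since the unique positions of the 10 lists sum to 236. Without the KO lists of Tombo and Nanom6A, 80.0% of the positions were in no KO list, in place of 52.0%. The share over all positions without these KO lists is not given here, so the 80.0% has no background. Support by at least 4 of the 6 single-mode tools was found at 13 positions, and support by at least 5 of 10 tools, or of 9 without MINES, at 12, beside 8 with at least 6 of 10 tools, and at least 2 of the 3 comparison lists named 9 positions, beside 15 in any. Windows of 100 and 400 nt around the stop codon held 9.18% and 32.7% of the placed positions, beside 19.4% within 200 nt. The share of exonic RRACH positions listed in WT or the comparison, 23.9%, was 32.6% in main transcripts, 19.6% without Tombo and 33.8% for the 4 sequences that MINES reports. The other alternatives moved each count by less than 1.5 times and kept each share within its interval. No paired analysis was possible because each condition had 1 library.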
